A study of Homo sapiens with 18 samples.

Results

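The 9 genes described here are fibroblast growth factor (FGF) ligands, an FGF receptor and feedback inhibitors of the FGF pathway, measured in human embryonic stem cells treated with the WNT protein Wnt3a. They were chosen by name: the ligands FGF2, FGF4, FGF8 and FGF17, the receptor FGFR1, and the inhibitors SPRY1, SPRY2, SPRY4 and DUSP6. All 9 were among the 10975 genes of the RPKM table of the first WT series. Of the 497 genes of the table that holds the SP5 mutant clones, 3 were members, namely FGF4, FGF17 and DUSP6. FGF2, FGF8, FGFR1, SPRY1, SPRY2 and SPRY4 were not listed there, so their levels in the mutant clones were not analysed here.

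The cells were H1, an established human embryonic stem cell line, grown in E8 medium, which itself contains FGF2 protein. RNA-Seq was performed at 0, 12, 24 and 48 h of treatment with 1 nM Wnt3a in 4 series: a first WT series, WT Rep. 2, and 2 clones mutant for SP5, named dZF1 and dZF2. Each series has 1 library per time. The 0 h cells received WNT storage buffer in place of Wnt3a. SP5 is a zinc-finger transcription factor of the SP/KLF family that is encoded by a WNT target gene. In dZF1 and dZF2, each derived from a single H1 cell, CRISPR-Cas9 removed the zinc-finger coding region from both SP5 alleles, and no unedited clone derived in the same way is among the samples. The 497 genes come from a list that the study chose for significant responses to Wnt3a, so a change over time in these genes is not independent of that choice. SP5 ChIP-Seq peaks were also deposited. With 1 library per series and time, the spread between cultures of one series at one time was not measured. Libraries of different times, and the 2 clones, were not treated as replicates of each other, so no test was made and no p-value is given. Changes are described as log2 ratios, a gene is counted as higher or lower where it differs at least 2-fold, and each count is set beside the share of all listed genes that passes the same threshold.

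FGF ligands are secreted proteins that bind receptor tyrosine kinases of the FGFR family together with heparan sulphate, and the activated receptor signals through RAS, RAF and MEK to the kinases ERK1 and ERK2. ERK signaling induces its own inhibitors: Sprouty proteins (SPRY) act between receptor and RAF, and DUSP6 is a cytoplasmic phosphatase that removes the activating phosphates from ERK. FGF2 maintains human pluripotent cells in culture, while FGF4, FGF8 and FGF17 are known from the primitive streak and early mesoderm and endoderm of the embryo, a stage that Wnt3a treatment of such cells resembles.

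Markers of the labelled cell type were present in the RPKM table. All 9 stem cell markers were listed, and their RPKM summed to 3202.5 at 0 h and 2218.1 at 48 h. Most were abundant, such as POU5F1 with 294.6 and SOX2 with 238.3 RPKM at 0 h, but NANOG was low, with 3.3, 3.1, 5.9 and 3.4 RPKM at the 4 times. The 4 mesendoderm markers T, MIXL1, EOMES and GSC summed to 0.7 RPKM at 0 h and 459.9 at 24 h, and the 4 endoderm markers SOX17, FOXA2, CXCR4 and GATA6 to 4 RPKM at 0 h and 257.4 at 48 h. Of the 4 trophoblast and 2 neural markers, 0 were listed. Of 6 fibroblast markers 3 were listed, and their sum was 213.7 RPKM at 0 h and 122.1 at 48 h, most of it from THY1, which human embryonic stem cells also express. In these bulk samples a lower share of cells of a type and less RNA per cell cannot be told apart, and the part of such shifts in the results below was not tested.

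At 0 h DUSP6, FGFR1 and SPRY4 were highest, FGF2, SPRY2 and SPRY1 were intermediate, and the other ligands were near or at 0. The plot of RPKM by time shows all 9 genes. RPKM is a level per transcript length, so genes can be ranked by it. DUSP6 led with 176.3 RPKM, above 97.1% of the listed genes, followed by FGFR1 with 89.4 and SPRY4 with 70.2. FGF2 had 38.0 RPKM, SPRY2 33.2 and SPRY1 22.3. FGF4 had 1.8 RPKM, FGF8 had 0.7 and FGF17 was listed at 0. By 48 h this order had changed at the top, where FGF17 stood at 142.3 RPKM, DUSP6 at 137.6 and SPRY4 at 115.4. Whether neighbours in this order differ beyond the spread between cultures cannot be said from 1 library.

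**Figure D1:**
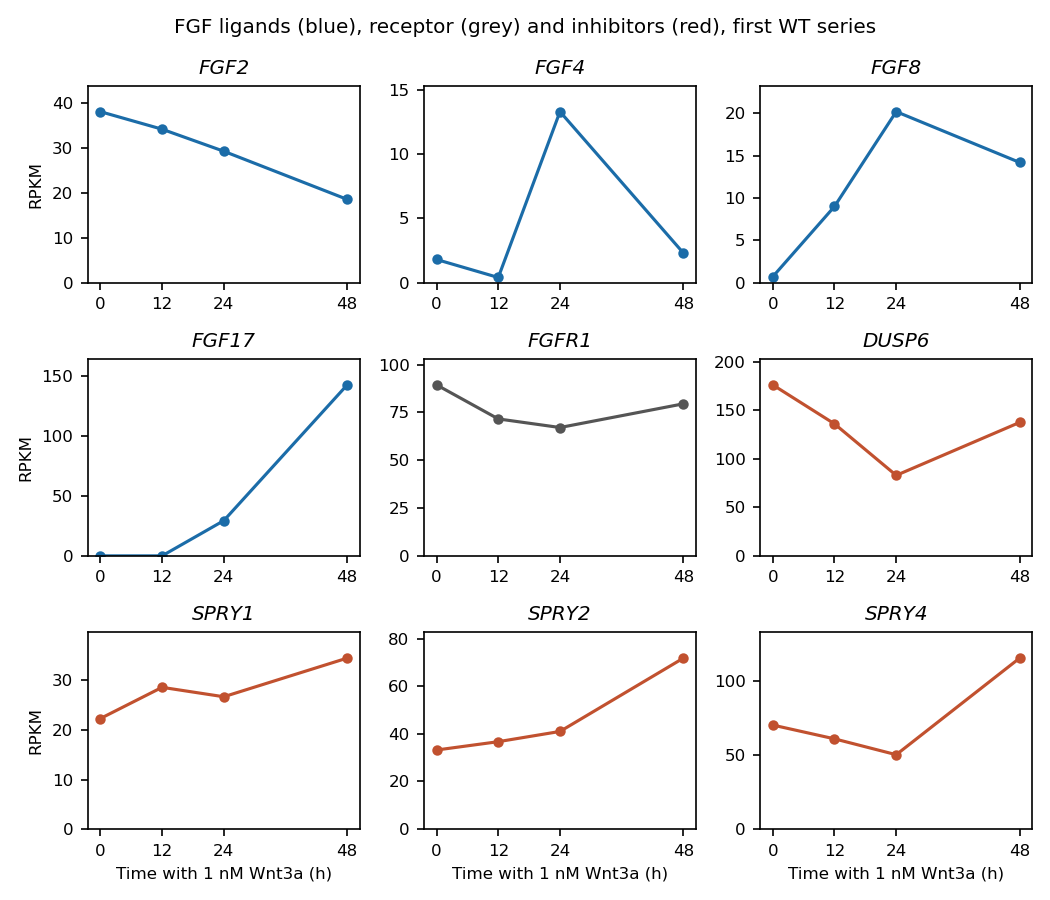
RPKM of each of the 9 genes (vertical axes, each starting at 0) against hours with 1 nM Wnt3a in the first WT series, 1 library per point and no error bars. FGF2 falls from 38.0 to 18.5 RPKM while FGF17 goes from 0 to 142.3, FGF4 and FGF8 are highest at 24 h, and DUSP6, SPRY4 and FGFR1 are lowest at 24 h.

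The ligands did not move as a group. FGF2, the ligand that supports self-renewal, was 38.0, 34.1, 29.2 and 18.5 RPKM at 0, 12, 24 and 48 h, lower at each time than at the one before. From 0 to 48 h it was lower by exactly 2-fold on the scale of RPKM + 1, so that it just met the threshold. FGF8 was 0.7, 9.0, 20.2 and 14.2 RPKM. Its log2 changes from 0 h were 2.56, 3.64 and 3.16 at 12, 24 and 48 h, and among the 10975 genes ranked by increase it was number 11 at 12 h and number 14 at 24 h. FGF8 was thus the only one of the 9 genes that was at least 2-fold higher by 12 h.

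FGF17, of the same subfamily as FGF8, was listed at 0 at both 0 and 12 h, at 29.3 RPKM at 24 h and at 142.3 RPKM at 48 h. No fold is given against a value of 0. With the pseudocount of 1 RPKM it was number 8 of the 10975 genes by increase at 24 h and number 2 at 48 h. Between 24 and 48 h it was 4.86-fold higher. FGF8 and FGF17 differed in timing, since FGF8 was at 9.0 RPKM at 12 h, when FGF17 was still listed at 0.

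FGF4 was 1.8, 0.4, 13.3 and 2.3 RPKM at 0, 12, 24 and 48 h, so in the first WT series it was high at 24 h alone. Genes were listed only where they reached 4 RPKM, which FGF4 did at 24 h alone. At 12 h it was lower by exactly 2-fold on the scale of RPKM + 1, between values near the pseudocount of 1 RPKM, and its log2 change was 2.35 at 24 h and 0.24 at 48 h. From 24 to 48 h it fell by 2.12 on the log2 scale.

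FGFR1, the receptor, stayed within a narrow range of 67.1 to 89.4 RPKM, with 89.4, 71.6, 67.1 and 79.5 RPKM at the 4 times. Its log2 change was at most 0.41 in size, at 24 h, where it was -0.41.

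The 4 inhibitors had no common course either. DUSP6 was 176.3, 136.1, 83.0 and 137.6 RPKM, a fall to 24 h with a log2 change of -1.08 and a partial return by 48 h, where the change was -0.36. SPRY4 had a similar low point at 24 h but ended above its start, with 70.2, 60.9, 50.2 and 115.4 RPKM. From 24 to 48 h SPRY4 was 2.30-fold higher, a log2 change of 1.18. SPRY2 was higher at each successive time, with 33.2, 36.7, 41.0 and 71.8 RPKM and a log2 change of 1.09 at 48 h. SPRY1 was 22.3, 28.6, 26.7 and 34.5 RPKM, and its change at 48 h of 0.61 was under 2-fold. All 3 Sprouty genes were highest at 48 h, and the share of all listed genes highest at that time was not counted. DUSP6, SPRY4 and FGFR1, 3 of the 9 genes, were lowest at 24 h, as were 20.4% of all listed genes.

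Counted over the 9 genes, 1 was at least 2-fold higher at 12 h (FGF8) and 1 lower (FGF4), where 1.22% and 0.738% of the 10975 genes were. At 24 h 3 were higher (FGF4, FGF8, FGF17), against 2.62% of all genes, and 1 was lower (DUSP6), against 1.36%. At 48 h 3 were higher (FGF8, FGF17, SPRY2), against 4.87% of all genes, and 1 was lower (FGF2), against 2.95%. The median log2 change of the 9 genes at 48 h was 0.61 beside -0.00 for all listed genes. The genes were chosen with results of these data known, so these shares describe the list and do not set it apart.

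The rest of the FGF pathway was read from a list of 78 other genes, of which 59 were listed in the RPKM table. At 48 h 7 of the 59 were at least 2-fold higher and 3 lower, that is 11.9% and 5.08%, with a median log2 change of 0.10. The shares of all listed genes were 4.87% and 2.95%. Of the 7 higher genes 5 were among the 15 genes listed of the inhibitor group, or 33.3% of them, and 0 of the 15 were lower at 48 h (the plot of changes by role shows them). At 12 h 1 of the 15 was higher and 1 lower, where 1.22% and 0.738% of all listed genes were. At 24 h 4 were higher and 1 lower, against 2.62% and 1.36% of all listed genes. The lower gene at both times was SHISA2, whose product holds FGF and WNT receptors back from the cell surface. It was 36.1, 13.1, 7.0 and 55.5 RPKM, with log2 changes of -1.40 at 12 h and -2.21 at 24 h, so it fell and then ended above its start. FLRT3, a membrane protein that binds FGF receptors and is known to promote as well as modulate their signaling, was 1.2, 1.1, 5.6 and 38.0 RPKM, with a log2 change of 4.15 at 48 h. DUSP10, a phosphatase that acts mainly on the stress kinases p38 and JNK, was 1.5, 4.5, 9.1 and 10.4 RPKM. DUSP4, a nuclear ERK phosphatase, was 4.0, 6.2, 9.1 and 19.5 RPKM, and SPRED3, a Sprouty-related protein, was 0.8, 0.8, 3.0 and 5.5 RPKM. IL17RD, also called SEF, an FGF-induced membrane inhibitor, was 40.8, 59.8, 76.8 and 93.9 RPKM, higher at each successive time.

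The other 2 genes that were higher act at the cell surface. FGFR3, an FGF receptor, was 4.4, 4.3, 4.7 and 17.2 RPKM, and SULF2, an enzyme that trims sulphate from heparan sulphate, was 4.6, 4.7, 8.1 and 14.5 RPKM. The 3 lower genes were FGF22, listed at 4.5 RPKM at 0 h and at 0 at the 3 later times, and the ERK target genes EGR1 and MYC. Genes were listed only where they reached 4 RPKM, which FGF22 did at 0 h alone and SPRED3 at 48 h alone. Their calls as lower and higher are therefore not independent of that filter. EGR1 went from 5.5 to 1.1 RPKM and MYC from 95 to 36.7 RPKM. The ETS factors ETV4 and ETV5, which are widely used as readouts of FGF signaling, were each under 2-fold, with ETV4 at 80.8 RPKM at 0 h and 70.8 at 48 h, and ETV5 at 18.4 and 25.4. Of the 17 listed genes of the cytoplasmic relay from receptor to ERK, 0 were 2-fold changed at 48 h. Of all listed genes 4.87% were at least 2-fold higher and 2.95% lower. Within 1.2-fold of their 0 h level were 13 of the 17, and the share of all listed genes within 1.2-fold was not counted. FGFR2 was 25.7, 19.9, 14.3 and 14.2 RPKM, and FGF19, a ligand gene that lies near FGF4, was 15.4, 17.0, 23.5 and 8.3 RPKM, both under 2-fold at 48 h.

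**Figure D2:**
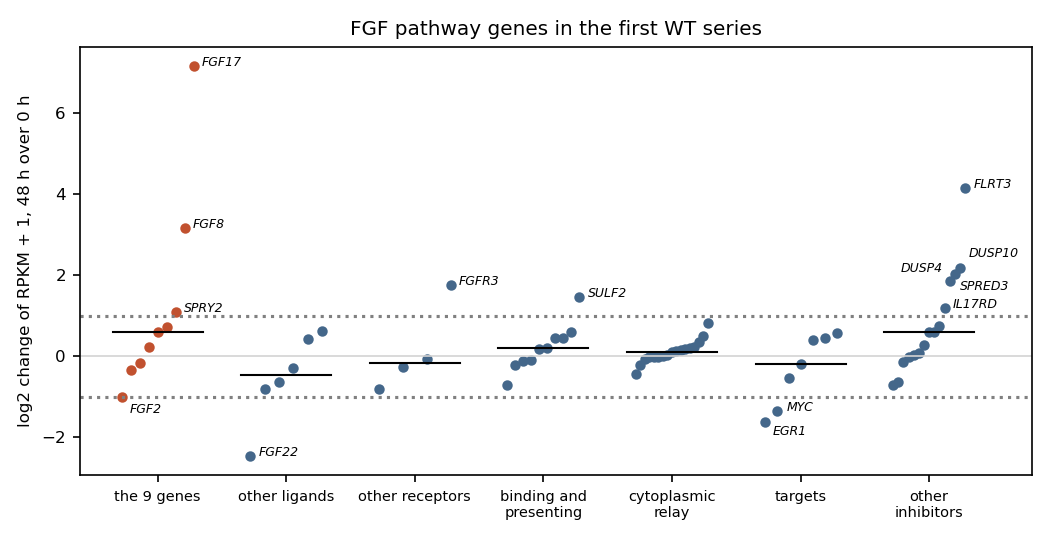
Log2 change of RPKM + 1 at 48 h over 0 h in the first WT series for the 9 genes and for the 59 other listed FGF pathway genes by role, 1 point per gene, with a black line at each group's median and dotted lines at 2-fold. The 17 relay genes lie between the dotted lines, and 5 of the 15 genes of the inhibitor group lie above the upper one. Of all listed genes 4.87% were at least 2-fold higher and 2.95% lower. The value of FGF17 depends on the pseudocount of 1 because its 0 h RPKM is 0.

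The SP5 mutant clones were compared with WT Rep. 2 at the same time, which asks how these genes differ when the DNA-binding domain of SP5 is missing. In this table WT Rep. 2 is given as a fraction of the gene's own highest RPKM in WT Rep. 2, and each clone is divided by that same RPKM, so values can be compared within a gene only. SP5 itself, the targeted gene, was 0.02, 0.02, 0.09 and 1.00 in WT Rep. 2. The clone dZF1 had 0.01, 0.23, 0.90 and 2.54, and the clone dZF2 had 0.00, 0.62, 0.75 and 2.61. A value for the whole transcript does not check the deletion, which the study itself checked by PCR and by immunoblot for SP5 protein.

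DUSP6 was the member that differed most from WT Rep. 2. It was 0.43, 0.18, 0.20 and 1.00 in WT Rep. 2 at 0, 12, 24 and 48 h. The values of dZF1 were 1.65, 1.48, 0.98 and 2.40, and those of dZF2 were 1.84, 1.86, 1.46 and 2.34 (the plot of the 3 series shows the curves). Both clones were above WT Rep. 2 at every time, and at 0, 12 and 24 h the lower clone was 3.84-fold, 8.22-fold and 4.90-fold higher. At 48 h the clones were 2.40-fold and 2.34-fold higher. After adding 0.05 to each value and taking log2, dZF1 and dZF2 exceeded WT Rep. 2 by 1.82 and 1.98 before Wnt3a, 2.73 and 3.05 at 12 h, 2.04 and 2.59 at 24 h, and 1.22 and 1.19 by 48 h. Ranked by the mean of both clones, DUSP6 was number 5, 2, 15 and 28 of the 497 genes at the 4 times.

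The difference in DUSP6 was thus already present in cells without Wnt3a. Measured as a change from each series' own 0 h library, the result depended on the time. From 0 to 12 h the log2 change of DUSP6 was -1.06 in WT Rep. 2, with -0.15 for dZF1 and 0.02 for dZF2, and from 0 to 24 h it was -0.94, -0.72 and -0.32 in the same order, so the clones were lower by less or not at all. From 0 to 48 h the clones did not exceed WT Rep. 2, and the log2 change was 1.13 in WT Rep. 2, with 0.53 for the clone dZF1 and 0.34 for dZF2. No unedited clone is among the samples. Loss of the SP5 zinc fingers and differences between a clone and its parental culture therefore cannot be told apart. This holds at 0 h and at the later times, for DUSP6 and for the other genes.

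FGF17 was listed at 0 in all 3 of these series at 0 and 12 h. At 24 h dZF1 had 0.04 and dZF2 had 0.14, while WT Rep. 2 was still at 0. At 48 h WT Rep. 2 had its maximum of 1.00, dZF1 had 2.36 and dZF2 had 1.97, so that both clones were above it, dZF2 by just under 2-fold. The timing of FGF17 was the same in all 4 series in that its highest value came at 48 h, after 0 h and 12 h values of 0.

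FGF4 varied between the clones. It was 0.52, 1.00, 0.69 and 0.48 in WT Rep. 2. The clone dZF1 had 0.10, 0.23, 0.67 and 0.44, and the clone dZF2 had 0.59, 0.16, 0.94 and 0.38. At 12 h both clones were lower than WT Rep. 2, by 4.35-fold and 6.25-fold, and FGF4 ranked number 5 from the bottom by their mean. The RPKM behind these ratios is not known here, and in the first WT series FGF4 was 0.4 RPKM at 12 h. From 0 to 12 h its log2 change was 0.88 in WT Rep. 2 but -1.17 in the first WT series. At 0 h dZF1 was 5.20-fold lower while dZF2 was 1.13-fold higher. At 24 and 48 h the clones lay within 1.36-fold of WT Rep. 2 in either direction.

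**Figure D3:**
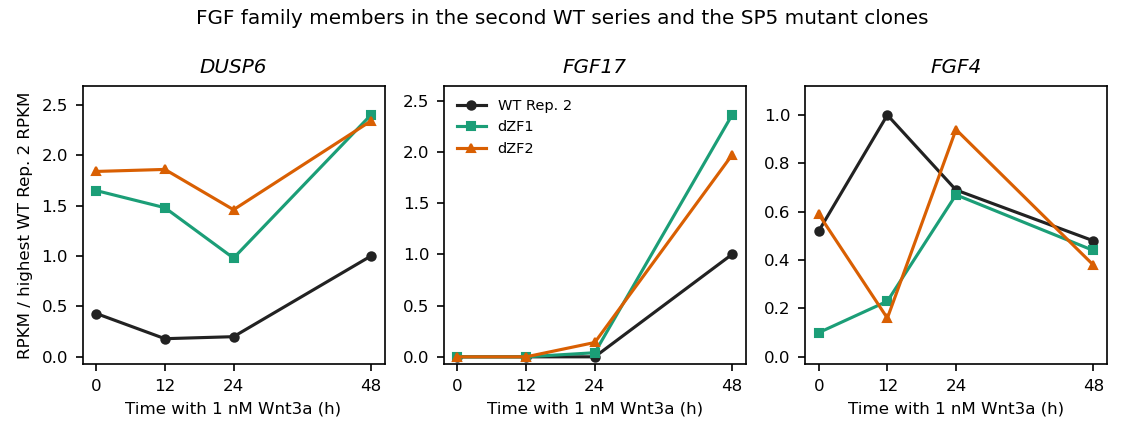
DUSP6, FGF17 and FGF4 in WT Rep. 2 (black), dZF1 (green) and dZF2 (orange) as RPKM divided by the gene's highest RPKM in WT Rep. 2, against hours with 1 nM Wnt3a, 1 library per point and no error bars. DUSP6 in both clones lies above WT Rep. 2 at all 4 times, FGF17 rises at 48 h in each series to 1.00, 2.36 and 1.97, and the FGF4 curves cross.

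In the count of genes at least 2-fold higher in both clones, 1 of the 3 members (DUSP6) passed at each time, where 2.21%, 3.42%, 10.5% and 6.24% of the 497 genes did at 0, 12, 24 and 48 h. In the count of genes at least 2-fold lower in both clones, 1 member (FGF4) passed at 12 h, where 3.82% of the genes did, and 0 at 0, 24 and 48 h, where the shares were 2.82%, 2.82% and 3.22%.

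Of the 78 other pathway genes 12 were in the mutant table, of which 5 were of the inhibitor group (the plot of clone ratios shows all 15 genes). FLRT3 at 48 h was 3.04 in dZF1 and 2.92 in dZF2, with WT Rep. 2 at 1.00. DUSP4 was 0.30, 0.26, 0.27 and 1.00 in WT Rep. 2, with 0.31, 0.55, 0.70 and 2.19 for dZF1 and 0.27, 0.55, 0.56 and 1.96 for dZF2. Both clones were above WT Rep. 2 at 12, 24 and 48 h, by 2.12-fold each at 12 h and by 2.59-fold and 2.07-fold at 24 h. With 0.05 added to each value, both clones at 12 h and dZF2 at 24 and 48 h were just under 2-fold. IL17RD, like DUSP6, was higher in both clones at every time. It was 0.25, 0.27, 0.29 and 1.00 in WT Rep. 2. The values were 0.49, 0.60, 0.83 and 1.36 for dZF1 and 0.57, 0.76, 1.13 and 1.23 for dZF2, at least 2-fold higher in both clones at 12 and 24 h. SHISA2 was 0.39 in WT Rep. 2 at 0 h and 0.82 and 0.75 in the clones, and 1.00, 1.83 and 1.51 at 48 h. DUSP10 was lower in both clones at 12 and 24 h, with log2 differences of -1.25 and -0.83 at 12 h.

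Targets and receptors in the table differed in both directions. EGR1, an immediate early gene of the ERK pathway, was 0.96, 1.00, 0.55 and 0.41 in WT Rep. 2. The values were 0.29, 0.29, 0.35 and 0.27 for dZF1 and 0.28, 0.09, 0.16 and 0.21 for dZF2. Both clones were lower at all 4 times and at least 2-fold lower at 0 and 12 h. In the same libraries DUSP6, which ERK signaling is also known to induce, was higher, so EGR1 and DUSP6 did not move together. EGR1 was low in the first WT series, with 5.5 RPKM at 0 h and 1.1 RPKM at 48 h. The mutant values are ratios, so the RPKM behind them is not known here. FGFR3 was lower in both clones at 0, 12 and 24 h, with log2 differences at 24 h of -0.90 and -1.42, and FGFR2 was lower in both at all 4 times by under 2-fold. MYC was higher in both clones at 0, 12 and 24 h, by 1.42-fold and 1.66-fold at 0 h, 1.46-fold and 1.79-fold at 12 h, and 1.36-fold and 1.93-fold at 24 h, and lower in both at 48 h by under 2-fold. CCND1, SULF2 and SOS2 were within 2-fold of WT Rep. 2 in both clones at every time.

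**Figure D4:**
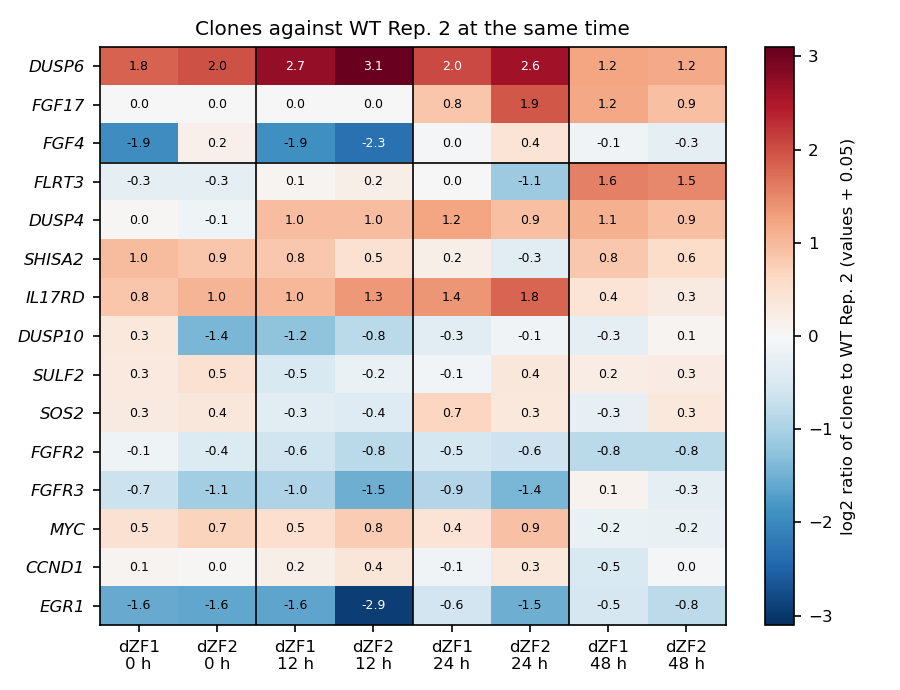
Log2 ratio of each SP5 mutant clone to WT Rep. 2 at the same time (values plus a pseudocount of 0.05) for the 3 members, above the horizontal line, and the 12 other FGF pathway genes of the mutant table, red for higher and blue for lower in the clone. The DUSP6 row is red throughout, the EGR1 row is blue throughout, and FLRT3 is at least 2-fold higher in both clones at 48 h only.

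The first WT series and WT Rep. 2 were scaled separately, so only their courses from 0 h can be set side by side, here on fractions of each gene's highest RPKM with the pseudocount of 0.05. At 24 h FGF17 had reached 0.21 of its maximum in the first WT series and was at 0 in WT Rep. 2. SP5 moved with it, at 0.67 of its own maximum in the former and 0.09 in the latter, and the median log2 change of all 497 genes was 0.64 and 0.08. The part of this difference between the series in the clone ratios at 12 and 24 h was not tested. DUSP6 at 48 h went in opposite directions, with a log2 change of -0.34 in the first WT series but 1.13 in WT Rep. 2. FGF4 at 12 h did so as well, with -1.17 and 0.88 in the same order, and the clones were split, with 0.90 in dZF1 and -1.61 in dZF2. At 24 h the log2 change of FGF4 was 2.54 in the first WT series and 0.38 in WT Rep. 2. FGF4 was highest at 12 h in WT Rep. 2, and at 24 h in the first WT series and both clones. A fall of DUSP6 from 0 to 24 h was common to all 4 series, with log2 changes of -1.01, -0.94, -0.72 and -0.32 in the order first WT series, WT Rep. 2, dZF1 and dZF2.

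The genes whose 12 values in the mutant table were most like those of each member were found by Pearson's r of log2 values, as a description over 12 libraries that share cells, clones and times. For FGF17 these were DKK1 (r = 0.99), a secreted WNT inhibitor, S1PR3 (0.98), a receptor for sphingosine 1-phosphate, and CYP26A1 (0.98), which degrades retinoic acid. For DUSP6 they were TNFAIP2 (0.86), ADM (0.84), which encodes the peptide adrenomedullin, and TRIB2 (0.83), a pseudokinase. For FGF4 they were BCOR (0.72), a transcriptional corepressor, EFNA5 (0.70), an ephrin ligand, and AXIN2 (0.70), a negative regulator of WNT signaling. Between the members r was 0.45 for DUSP6 and FGF17, 0.09 for FGF4 and FGF17, and -0.52 for DUSP6 and FGF4. FGF17 was at 0 in each of these series at 0 and 12 h and highest at 48 h. Its r values therefore depend largely on the 48 h libraries.

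SP5 binding near the 9 genes was read from 2 deposited peak lists of 540 and 542 peaks. Per the file headers both were called on the same ChIP library of Wnt3a-treated cells, and they differ in the control library, which came from Wnt3a-treated cells for the 540 peaks and from buffer-treated cells for the 542. Neither therefore gives SP5 binding in untreated cells. The library names in the headers carry the name of another human embryonic stem cell line, H9, where the labels say H1, so the line is not certain. Peaks were assigned where the summit, the position of the highest tag pileup, lay within 100000 bases of a gene's start site, the 5′-most start in the GENCODE annotation of GRCh37. Of the 9 genes 4 had such a summit in either list, where 9.17% of 20103 protein-coding genes did, and 3 had one in the list with the Wnt3a-treated control, where 6.61% did. Most peaks of the 2 lists were weak. Over all peaks the median false discovery rate given by the peak caller was 39.7% in the list with the Wnt3a-treated control and 69.6% in the other. Peaks near the 9 genes had rates from 3.03% to 70.5%.

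The strongest of the peaks near the 9 genes was upstream of SPRY4, which lies on the minus strand of chromosome 5 at 141689992 to 141706020 (GRCh37). The peak spanned chr5:141735840-141737134 with its summit 30.6 kb upstream of the SPRY4 start site, in an intergenic region whose nearest protein-coding start site was that of SPRY4. It held 54 tags, was 8.69-fold enriched and had a false discovery rate of 3.03%, and by score it was number 33 of 540 peaks. It was in the list with the Wnt3a-treated control only. The 201 bases around the summit, chr5:141736508-141736708 on the plus strand of GRCh37, are shown because this was the one peak near a member with a false discovery rate under 5%. The capitals mark the summit and 10 bases on each side:
SPRY4 peak: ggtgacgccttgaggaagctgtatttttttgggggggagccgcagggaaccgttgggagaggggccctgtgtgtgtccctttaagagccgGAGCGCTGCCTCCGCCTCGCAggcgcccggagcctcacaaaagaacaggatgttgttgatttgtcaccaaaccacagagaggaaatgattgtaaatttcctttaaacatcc

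These 201 bases, 54.2% of them G or C, held neither the GC box GGGCGG, to which SP/KLF factors bind, nor the related GGGAGG, on either strand. In windows of the same length around all summits of this list, GGGCGG was in 42.1% and GGGAGG in 50.8% of 539 windows. A motif match or its absence describes these letters only. SPRY4 is not in the mutant table, so its level in the clones was not analysed here. In the first WT series it was 70.2 RPKM at 0 h, 50.2 at 24 h and 115.4 at 48 h.

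FGFR1, on the minus strand of chromosome 8 at 38257733 to 38326352, had peaks with summits 43.6 kb and 53.1 kb upstream of its start site, both intergenic with FGFR1 as the nearest protein-coding start site. They held 35 and 34 tags. The farther one was in both lists, with a false discovery rate of 19.5% in the list with the Wnt3a-treated control and 11.8% in the other, and the nearer one was in the list with the Wnt3a-treated control alone, at 27.0%.

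The peaks near FGF4 and FGF17 lay closest to other genes. FGF4 is on the minus strand of chromosome 11 at 69585790 to 69590109, and the summit 71.2 kb downstream of its start site was 119 bases upstream of the start site of FGF19, with 43 tags, a false discovery rate of 11.5% and both motifs within 100 bases. FGF17 is on the plus strand of chromosome 8 at 21899909 to 21906320, and the summit 6.9 kb downstream of its start site was in an intron of DMTN, 298 bases from the DMTN start site. That peak had 21 tags and a false discovery rate of 70.5% and was in the list with the buffer-treated control only.

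**Figure D5:**
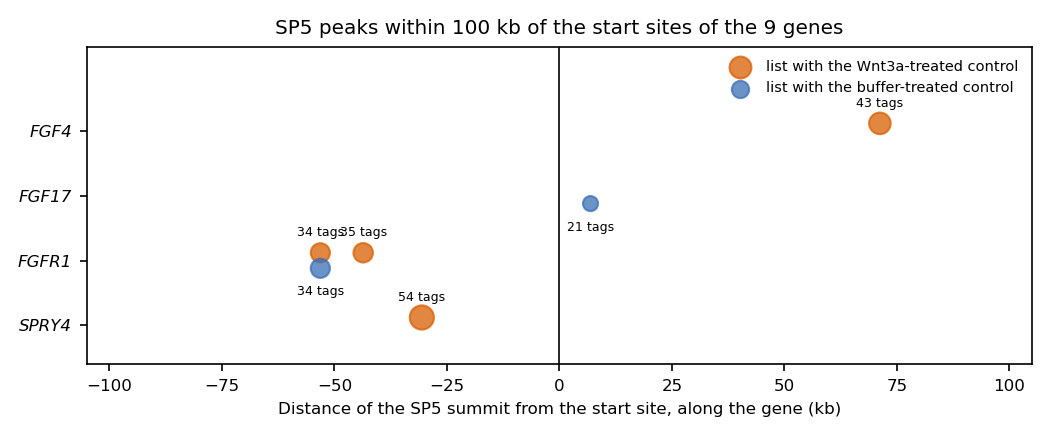
Position of each deposited SP5 peak summit within 100 kb of the start site of SPRY4, FGFR1, FGF17 or FGF4, in kb along the direction of transcription (negative is upstream), coloured by peak list, with the size of the point in proportion to its tags. The SPRY4 and FGFR1 summits are upstream and the FGF17 and FGF4 summits downstream of the start site, and none is closer than 6.9 kb.

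FGF2, FGF8, SPRY1, SPRY2 and DUSP6 had no summit within 100000 bases in either list, nor within 500000 bases. DUSP6, the member that was higher in both clones at every time, lies on the minus strand of chromosome 12 at 89741012 to 89746278, and the nearest summit was 9344 kb away. The lists hold peaks past the threshold of the caller only, and the study's own list of peaks was not used here. The 250 bases before the DUSP6 start site in RefSeq, chr12:89352502-89352751 on the minus strand of GRCh38.p14, are shown because the difference in the clones was largest for this gene. The capitals mark GGGAGG, here on the opposite strand as CCTCCC:
DUSP6 promoter: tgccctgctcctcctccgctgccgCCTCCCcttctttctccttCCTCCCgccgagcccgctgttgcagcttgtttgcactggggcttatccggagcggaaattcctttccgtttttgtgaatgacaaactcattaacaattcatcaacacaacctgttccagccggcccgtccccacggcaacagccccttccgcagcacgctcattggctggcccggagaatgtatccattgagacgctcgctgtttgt

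These bases held GGGAGG at 2 places and GGGCGG at 0. Promoters of 300 bases, 250 before to 50 after the start, were found in RefSeq for 5 of the 9 genes (FGF2, SPRY1, SPRY2, SPRY4 and DUSP6). GGGCGG was in those of FGF2, SPRY2 and SPRY4 and GGGAGG in those of FGF2, SPRY4 and DUSP6, while over 35116 promoters of that length the shares were 45% and 49.3%. SPRY1 had neither. FGF4, FGF8, FGF17 and FGFR1 were not matched.

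Among the 78 other pathway genes 12 had a summit within 100000 bases in either list, where 9.17% of protein-coding genes did. Of these 12 genes 0 had a peak with a false discovery rate of at most 5%. The share of all protein-coding genes with such a peak was not counted. The closest summits were at the start sites themselves. HS2ST1, a heparan sulphate sulphotransferase, had a summit 17 bases into the gene, and FGF19 and FGF11 had summits 119 and 190 bases upstream of their start sites. The levels of these 3 genes in the first WT series differed by under 2-fold between 0 and 48 h. The summit near FGF19 was also within 63.0 kb of the start site of CCND1, so that 1 peak counted for FGF4, FGF19 and CCND1.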

How the data were processed

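RNA-Seq values of 9 named FGF pathway genes and SP5 ChIP-Seq peaks near them were taken from the deposited tables. The authors aligned RNA-Seq reads of rRNA-depleted RNA with TopHat (hg19) and obtained RPKM from Cuffdiff. For the first WT series they deposited RPKM rounded to 0.1, for genes that reach 4 RPKM, and the same values as a fraction of each gene's highest RPKM. For WT Rep. 2 the authors deposited fractions of its highest RPKM, and for the clones a ratio to that RPKM. No deposited table holds read counts, so the depth behind an RPKM is unknown and no interval is given. The submitters' processing notes name Bowtie 0.12.7, SAMtools 0.1.12a and MACS 1.4.2. Per the file headers each peak has its tag count, a score on a log10 scale of the p-value, a fold enrichment and the percent false discovery rate, from 18641194 ChIP tags and controls of 19031237 (buffer) and 20618344 (Wnt3a) tags, at a p-value cutoff of 1e-05.

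Groups came from the sample titles, and 0 per-sample columns were left unused. Changes were log2 ratios with a pseudocount of 1 for RPKM and 0.05 for the mutant table, called at 2-fold, in both clones for the mutants. Such a log2 change understates that of genes with low values, and folds given as such are of the values themselves. Tables scaled separately were compared in their courses only. The members, the list of 78 pathway genes, the marker lists and the distance of 100000 bases were chosen with earlier results of these data known. Genes other than members were named if they are pathway genes in the mutant table, at least 2-fold changed at 48 h or near a summit, or among the 3 most like a member over the 12 libraries, together with SP5. FGF19, ETV4 and ETV5 apart from that rule, and which marker genes and summits to name, were chosen after their values were seen. Peak summits were compared with GENCODE release 44 mapped to GRCh37, motifs were counted on both strands, and promoters were from RefSeq (GRCh38.p14). Alternatives were other pseudocounts, scalings, distances and peak filters and each clone left out. The 2-fold calls were tried on simulated data only, and how often they hold between cultures was not tested. Python 3.11.15, numpy 2.4.6, pandas 2.3.3 and matplotlib 3.10.9 were used.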

Additional observations from a re-analysis of the deposited data

Results flagged for a closer look

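The same change had opposite directions in the first WT series and WT Rep. 2 for 2 results, each by a log2 change of at least 0.25 in size; neither difference was tested, as there is 1 library per series and time. FGF4 from 0 to 12 h was lower in the first WT series (-1.17) and higher in WT Rep. 2 (0.88), a difference of 2.05 on the log2 scale. At 12 h 13.1% of the 497 genes had opposite directions by the same measure. DUSP6 from 0 to 48 h was lower in the first WT series (-0.34) and higher in WT Rep. 2 (1.13), a difference of 1.47, and at 48 h 5.63% of the 497 genes had opposite directions.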

How the results depend on the processing

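No paired analysis was possible because the results come from no test: libraries of 1 series at different times were not treated as replicates, and the labels do not say that a replicate number marks a shared culture. Of the changes of single members that were past 2-fold, 2 reversed. FGF8 at 48 h in the first WT series was -0.48 against the preceding time in place of 0 h. The mean of the clones for DUSP6 at 48 h was -0.70 when taken as a change from each series' own 0 h library. Another 183 values stayed on their side of 2-fold, 12 lost the 2-fold call and 7 gained it. Changes under 2-fold that switched sign are among the 183 and the 7 and were not counted as reversed. FGF4 at 48 h in the first WT series, for example, was 0.24 against 0 h but -2.12 against the preceding time. FGF2 at 48 h and FGF4 at 12 h, both exactly at 2-fold, lost the call with a pseudocount of 5 RPKM (-0.87 and -0.33).

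Over all genes of the first WT series, a pseudocount of 0.1 gave 205 higher and 148 lower at 12 h and 232 lower at 24 h. A pseudocount of 5 gave 34 higher and 8 lower at 12 h, 119 and 36 at 24 h, and 244 and 98 at 48 h. With a maximum RPKM of at least 10, the counts were 71 and 26 at 12 h, 178 and 67 at 24 h, and 315 and 164 at 48 h. With the pseudocount of 5, 1 member and 1 other pathway gene were 2-fold changed at 12 h, and 2 other pathway genes at 24 h. Scaling each library to the median moved no count of members or pathway genes by over 1.5 times.

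In the mutant table, as a change from the own 0 h library, 0 members were 2-fold changed in both clones at 12, 24 and 48 h, and with a pseudocount of 0.01 there were 2 at 24 h (DUSP6 and FGF17). Without either clone 1 to 2 members were called at each time, FGF4 at 0 h and FGF17 at 48 h being added by dZF1 alone and FGF17 at 24 h by dZF2 alone. Over the 497 genes, a pseudocount of 0.01 gave 18 higher at 0 h. A pseudocount of 0.2 gave 6 higher and 6 lower at 0 h, 5 and 9 at 12 h, 34 and 7 at 24 h, and 4 lower at 48 h. The mean of both clones gave 17 higher and 24 lower at 0 h, 34 lower at 12 h, 91 higher and 28 lower at 24 h, and 30 lower at 48 h. Without dZF1 or dZF2 the higher genes numbered 18 to 29 at 0 h, 29 to 33 at 12 h, 60 to 111 at 24 h and 49 to 56 at 48 h, and the lower genes 26 to 39, 34 to 40, 23 to 45 and 29 to 41. Of the 9 genes, 1 had a summit within 10000 bases (FGF17) and 1 a peak with a false discovery rate of at most 5% (SPRY4). The shares of all protein-coding genes at these settings were not counted.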

Other observations

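In the mutant table FLRT3, which was close to WT Rep. 2 in both clones at 0 and 12 h, was higher in both at 48 h, whereas DUSP6 and IL17RD were higher in both clones from 0 h on. Other pathway genes whose courses in the WT series had opposite directions from 0 to 48 h were FGFR3, with log2 changes of 1.76 in the first WT series but -0.29 in WT Rep. 2, and MYC, with -1.25 and 0.32. In both clones FGFR3 was higher at 48 h than at 0 h (0.47 and 0.50) and MYC lower (-0.36 and -0.61). These values come from 1 library each and were not tested.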
